A study of Mus musculus with 160 samples.

Results

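The receptors through which blood progenitors receive growth factors and cytokines were followed in single cells made in culture from mouse pluripotent stem cells. The set comprised Kit, Flt3, Il7r, Il2rg, Csf1r, Csf2rb, Csf2ra, Epor and Il6st, which were chosen by name as 9 of the 23420 gene rows of the expression table, and all 9 were found. The stem cells, of C57BL/6 origin, carried a doxycycline-inducible cassette joining Runx1 and Hoxa9 at the Rosa26 locus and came from selected clones, so every group shares the cassette. Doxycycline was added in the course of differentiation and sustained through the maturation step. The 160 cells fell into 4 groups. Induced hemogenic endothelial cells (iHEC, 65 cells) had been sorted as CD31+CD41lowCD45-c-kit+CD201high, and the day-14 cells (21) and day-17 cells (18) as CD45+Lin- after 3 and 6 days of maturation on the OP9-DL1 stromal feeder. The 56 cells of day 21, after 10 days of maturation, had been sorted as Ter119-CD45+c-kit+CD127+. Maturation medium held IL-3, human Flt3 ligand and stem cell factor, which act through Csf2rb, Flt3 and Kit. The medium used before the iHEC sort held these factors and IL-6, and the feeder was seeded for the maturation step.

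Kit, Flt3 and Csf1r encode receptor tyrosine kinases, single chains that pair with themselves when stem cell factor, Flt3 ligand or macrophage colony-stimulating factor binds. The other members are cytokine receptor chains, which have no kinase of their own and signal through bound JAK kinases to STAT transcription factors. Il7r (CD127) joins Il2rg, the common gamma chain, to form the IL-7 receptor that T cell precursors depend on. Csf2ra binds granulocyte-macrophage colony-stimulating factor and shares Csf2rb, the common beta chain, with the receptors for IL-3 and IL-5. Epor is the erythropoietin receptor of red cell precursors, and Il6st (gp130) is the signal chain of the IL-6 family. In blood formation Flt3 and Il7r are known for early lymphoid progenitors, Csf1r and Csf2rb for myeloid cells, and Kit for stem cells, many progenitors and mast cells.

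Each library was made from 1 cell, and nothing in the labels ties a cell to a particular culture or experiment, so each group counts as 1 sample. No test between groups was therefore possible. Values are TPM, a relative transcript abundance, which are scaled per transcript length and to a fixed total and so can be compared between genes. A cell with more than 1 TPM is called positive, a level is the mean ± SD between cells of log2(TPM + 1), and shares carry exact Clopper-Pearson 95% intervals that cover counting error only. Where no cell was positive, the limit given instead is 3 cells of the total, which is somewhat below the exact upper bound. TPM keeps no read depth, and a value of 0 can be a transcript that was missed. The median number of genes above 1 TPM per cell was 4926 in iHEC, 8200 at day 14, 8101 at day 17 and 6695.5 at day 21. The day, the sort gate and the number of genes detected moved together between iHEC and day 14, and between day 17 and day 21. Between iHEC and day 14 the medium and the feeder changed as well. On those steps these differences cannot be told apart. The day-14 and day-17 cells shared a sort gate, and their medians of genes detected were close.

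Some cells stood apart in measures other than the level of a single member, and they were singled out after their values were seen. In 9 pairs of cells from the same group the log2(TPM + 1) values over all genes correlated above 0.95 (Pearson's r), 4 pairs in iHEC, 4 at day 14 and 1 at day 17, whereas the median pair correlated at 0.659 in iHEC, 0.900 at day 14 and 0.864 at day 17. Other day-14 pairs reached up to 0.947. The closest pair, iHEC cells 5 and 6, reached 0.994, and no other cell correlated above 0.784 with either of them. Whether such pairs hold material of the same cell was not tested, and results were also computed without the second cell of each pair. Ptprc, which encodes CD45, was at or below 1 TPM in 4 of the 95 cells sorted as CD45+, namely day-14 cells 4 and 17, day-17 cell 9 and day-21 cell 49. Day-17 cells 1 and 18 had summed levels of 10 neutrophil and monocyte markers of 9033 and 7519 TPM, against at most 196 TPM in the other day-17 cells. Cells were singled out by this sum at day 17 only. The sum reached 4062 TPM in iHEC, 1861 TPM at day 14 and 4808 TPM at day 21. Ptprc was positive in 1 of 65 iHEC, Procr (CD201) in 59 of them, and 7 of 7 endothelial markers were detected in iHEC, 5 at day 14, 2 at day 17 and 2 at day 21. Among these markers Cdh5 was listed at 0 in every cell of the later groups, whereas Egfl7 was positive in 20 of 21, 18 of 18 and 36 of 56 of them.

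Kit, Flt3 and Il7r are the 3 receptors whose presence in the same cell is counted further on, and the sequences around their transcription starts are shown for that reason. Each runs from 250 bases before to 50 after the RefSeq start in GRCm38.p6 (the assembly also named mm10), in the direction of transcription. Capitals mark matches on either strand to any of 4 motifs. The motif searched for GATA factors was AGATAA, that for RUNX factors was TGTGGT, that for ETS factors was GGAAGT and that for STAT factors was TTCNNNGAA, and no 2 matches overlapped. Kit at chr5:75574737-75575036 is on the plus strand, Flt3 at chr5:147400440-147400739 and Il7r at chr15:9529827-9530126 on the minus strand.
Kit: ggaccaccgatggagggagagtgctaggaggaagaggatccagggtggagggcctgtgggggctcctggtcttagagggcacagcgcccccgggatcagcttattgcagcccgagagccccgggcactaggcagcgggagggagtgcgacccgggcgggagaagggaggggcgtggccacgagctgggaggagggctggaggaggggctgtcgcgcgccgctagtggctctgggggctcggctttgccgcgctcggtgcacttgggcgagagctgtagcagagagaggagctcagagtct
Flt3: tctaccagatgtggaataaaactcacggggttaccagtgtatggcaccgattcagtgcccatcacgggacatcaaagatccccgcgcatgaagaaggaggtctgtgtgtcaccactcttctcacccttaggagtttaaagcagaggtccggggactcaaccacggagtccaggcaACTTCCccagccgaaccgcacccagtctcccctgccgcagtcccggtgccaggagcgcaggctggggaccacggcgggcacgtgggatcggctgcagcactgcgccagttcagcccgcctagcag
Il7r: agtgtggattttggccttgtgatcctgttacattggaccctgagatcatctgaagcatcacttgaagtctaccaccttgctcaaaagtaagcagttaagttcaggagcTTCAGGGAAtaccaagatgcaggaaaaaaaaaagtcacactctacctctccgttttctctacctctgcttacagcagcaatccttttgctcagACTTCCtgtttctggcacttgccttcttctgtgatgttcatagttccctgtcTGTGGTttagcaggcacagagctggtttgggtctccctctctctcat

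The Flt3 window held 1 ETS match, with its first base at position -75 from the start. The Il7r window held a STAT match at -142, an ETS match at -49 and a RUNX match at position 3. None of the 4 motifs was present in the Kit window, which says only that these letters are not there. For Kit 2 RefSeq starts were listed, and only the window of the first was searched. Of 32851 RefSeq promoter windows of the same length, 11.2% held the GATA, 16.8% the RUNX, 23.8% the ETS and 8.30% the STAT motif. A single match is thus not particular to these genes, and the share of windows with several motifs was not computed. Windows were available for 7 of the 9 members, and Csf1r and Csf2rb are named only. Among the others, Il2rg had a RUNX match at -227 and Epor a GATA match at -54 and a RUNX match at -166.

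Flt3 and Il7r, the receptors most tied to lymphoid progenitors, were absent from the endothelial cells and appeared one after the other. Flt3 was listed at 0 TPM in all 65 iHEC, where 0 positive cells allow a share of up to 4.62%. It ran from 0 to 178 TPM at day 14 with a median of 44.03, and from 0.105 to 166.8 TPM at day 17 with a median of 56.98. At day 21 it ran from 0 to 182 TPM with a median of 18.3, and 33 of 56 cells were positive (58.9%, 44.98 to 71.9%). The cells of day 21 thus lay in a positive set and a set at or near 0, with the mean at 3.19 ± 2.78, below that of day 17 at 5.21 ± 2.16.

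Il7r was listed at 0 in all 65 iHEC and reached no more than 0.337 TPM in any of the 21 day-14 cells, which allows a positive share of up to 14.3% there. At day 17 it was positive in 15 of 18 cells (83.3%, 58.6 to 96.4%), with a median of 39.7 TPM and a highest value of 104.6 TPM. The 3 negative cells were those named above, cells 1, 9 and 18, and in the other 15 the lowest value was 9.63 TPM. That these 15 lay above every day-14 cell follows from taking only positive cells. Over all 18 cells the ranges overlapped, since the lowest day-17 value was 0. At day 21, where the gate selected CD127 protein, 41 of 56 cells were positive, with a range of 0 to 233 TPM and a median of 28.1. The transcript was thus at or below 1 TPM in 15 cells sorted for the protein.

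Csf1r, the macrophage colony-stimulating factor receptor, was a day-14 transcript. It was positive in 2 of 65 iHEC, in 19 of 21 day-14 cells, in 5 of 18 day-17 cells and in 1 of 56 day-21 cells. At day 14 it ran from 0 to 287.5 TPM with a median of 32.5 TPM. The 2 day-14 cells at 0 were cells 4 and 17, the ones with Ptprc at 0, and without them the lowest value was 7.55 TPM. At day 17 the values of the 5 positive cells were 191, 17.05, 12.96, 5.05 and 343 TPM in cells 1, 3, 7, 16 and 18. The highest 2 were the cells rich in neutrophil and monocyte markers, and without these and cell 9 the highest value was 17.05 TPM.

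Kit was present in all groups and varied more between cells than between groups. Its median was 31.8 TPM in iHEC (0 to 500.2), 7.22 TPM at day 14 (0 to 45.4), 29.8 TPM at day 17 (0 to 130.03) and 44.8 TPM at day 21 (0 to 355). Levels were 4.05 ± 2.83, 2.93 ± 1.70, 4.55 ± 1.92 and 5.43 ± 1.997, and no neighbouring pair in their order was separated by more than the larger SD. Both iHEC and the cells of day 21 were gated on c-kit protein, and Kit was nevertheless at or below 1 TPM in 17 of 65 and 4 of 56 of them, since 48 and 52 were positive.

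Il2rg, the common gamma chain, had the highest level of the 9 members in every group and was already strong in iHEC, in which Il7r was listed at 0. It was positive in 59 of 65 iHEC with a median of 341 TPM, and 45 of the 65 exceeded 100 TPM. Every later cell was positive, with medians of 232 TPM at day 14, 459.7 TPM at day 17 and 797 TPM at day 21. At day 21 the lowest cell had 66.7 TPM and the highest 2036.5 TPM, and the level was 9.54 ± 0.87, the smallest spread among the members positive in most cells of that day. Only 205 of the 23420 rows had a higher mean there.

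Csf2rb, the common beta chain, was high in iHEC and at day 14, low in most day-17 cells and divided at day 21. It was positive in 56 of 65 iHEC with a median of 82.6 TPM and a highest value of 501 TPM. At day 14 it was positive in 19 of 21 cells with a median of 54.6 TPM, and the 2 negative cells were again cells 4 and 17. At day 17 it was positive in 8 of 18 cells, with cells 1 and 18 highest at 73.3 and 185 TPM, and at day 21 in 28 of 56. A near-identical neighbouring gene, Csf2rb2, exists, and reads shared between the copies could not be separated here.

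Csf2ra, the binding chain for granulocyte-macrophage colony-stimulating factor, was positive in 29 of 65 iHEC, 17 of 21 cells at day 14, 15 of 18 at day 17 and 29 of 56 at day 21. Its level was highest at day 14 at 4.30 ± 2.44 and day 17 at 3.70 ± 2.43, against 1.92 ± 2.36 in iHEC and 2.04 ± 2.18 at day 21. Epor was mainly an iHEC transcript, positive in 22 of 65 iHEC with a highest value of 255 TPM, in 2 of 21 day-14 cells, in 0 of 18 day-17 cells (a share of up to 16.7%) and in 1 of 56 day-21 cells. Il6st was positive in 24 of 65 iHEC, 4 of 21 cells at day 14, 9 of 18 at day 17 and 4 of 56 at day 21, and its highest value after iHEC was 14.2 TPM. All 3 chains overlapped between the groups. Over the 9 members, 3 of 27 neighbouring pairs of groups in the order of levels lay farther apart than the larger SD: Flt3 at day 21 above iHEC, Il7r at day 21 above day 14, and Csf1r at day 14 above day 17.

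**Figure D1:**
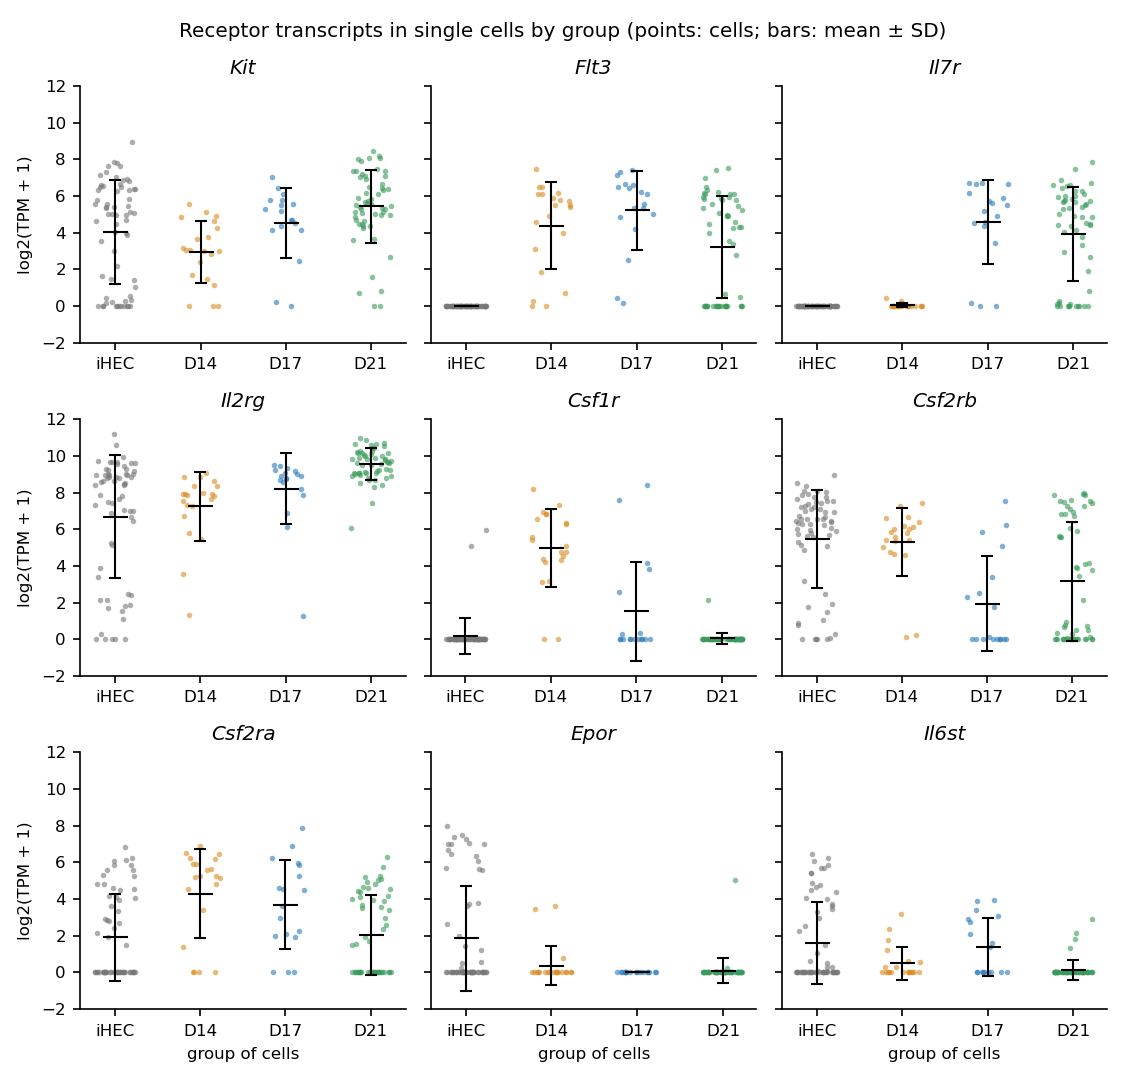
Levels of the 9 receptors in each cell, as log2(TPM + 1) on the vertical axis, by group on the horizontal axis, with black bars for the mean ± SD between cells. Flt3 and Il7r are at 0 in all 65 iHEC, Csf1r is spread upward at day 14 with 19 of 21 cells positive, and Il2rg is above 60 TPM in every day-21 cell.

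Differences between consecutive groups were set against those of the 9674 genes with more than 1 TPM in more than 30 cells, a filter that 7 of the 9 members passed (Csf1r, positive in 27 cells, and Epor, positive in 25, did not). From iHEC to day 14, 3 members were 2-fold or more higher in the mean of log2(TPM + 1), Csf1r by 4.81, Flt3 by 4.38 and Csf2ra by 2.38, and 48% of all kept genes were higher by as much. In the other direction 3 were lower, Epor by -1.48, Il6st by -1.12 and Kit by -1.12, against 11.5% of kept genes. Since 2 members did not pass the filter, the shares over all 23420 rows are given as well, 20.6% higher and 5.37% lower. The 3 of 9 members that were higher lay between both backgrounds, and the 3 of 9 that were lower lay above both. Members were chosen with earlier results known, so this is a description only. The median kept gene was itself 0.93 higher at day 14. Relative to that median, 3 members were higher and 4 lower, Csf2rb joining the latter at -1.06. The Kit difference was -0.94 without the second cell of each near-identical pair and -0.97 without the day-14 cells lacking Ptprc, both just under 2-fold, and -1.87 in cells with 5000 or more genes detected.

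From day 14 to day 17, Il7r was higher by 4.55 and Kit by 1.62, against 15.5% of kept genes higher by 1 or more. Csf1r was lower by -3.46 and Csf2rb by -3.38, against 3.89% of kept genes. Csf1r is not among the kept genes, so this share is a background for Csf2rb only. The Il7r difference exceeded that of 99.7% of kept genes, and the Csf2rb difference lay below all but 0.134% of them. The median kept gene was 0.28 higher, and relative to it the same counts were obtained. Without the 2 day-17 cells rich in neutrophil and monocyte markers, 5 members were higher and 3 lower: Flt3 by 1.299, Il6st by 1.08 and Il2rg by 1.07 joined Il7r and Kit, and Csf2ra at -1.06 joined Csf1r and Csf2rb.

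From day 17 to day 21, Il2rg was higher by 1.33 and Csf2rb by 1.23, against 2.33% of kept genes. Flt3 was lower by -2.02, Csf2ra by -1.66, Csf1r by -1.47 and Il6st by -1.25, against 38.5% of kept genes, a share close to the 4 of 9 members, and 16.8% of all rows. The median kept gene was lower by -0.74 at day 21. Relative to it 3 members were higher, Il2rg by 2.06, Csf2rb by 1.97 and Kit by 1.63, and only Flt3, at -1.28, remained lower by 1 or more. The Il2rg difference was 0.96 without the cells lacking Ptprc. Without day-17 cells 1 and 18 the Csf1r difference was -0.66, and the Il7r difference, -0.68 over all cells, was -1.25 and so past 2-fold. The change of gate from Lin- to c-kit+CD127+ falls on the same step. The day-21 means also join the Gata2-low and Gata2-high cells described further on. Flt3 was at 5.21 at day 17, 5.03 in Gata2-low and 0.36 in Gata2-high cells. Csf2rb was at 1.93, 0.78 and 6.85 in the same order. In Gata2-low cells Flt3 was thus near its day-17 level, and Csf2rb was lower than at day 17, not higher.

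Read cell by cell, the receptors defined 1 leading combination in each group. Of the 16 possible combinations of Kit, Flt3, Il7r and Csf1r, 46 of 65 iHEC (70.8%, 58.2 to 81.4%) were positive for Kit alone, 17 for none of the 4, and 2 for Kit and Csf1r. At day 14, 16 of 21 cells (76.2%, 52.8 to 91.8%) were positive for Kit, Flt3 and Csf1r together. The remaining 5 each had a combination of their own, and none held Il7r. At day 17, 12 of 18 cells (66.7%, 40.99 to 86.7%) were positive for Kit, Flt3 and Il7r without Csf1r, and 3 more for all 4. The day-14 combination of Kit, Flt3 and Csf1r was left in 1 day-17 cell, cell 1.

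At day 21 the same combination of Kit, Flt3 and Il7r without Csf1r was found in 28 of 56 cells (50%, 36.3 to 63.7%), and 1 more cell held all 4. The next most frequent were Kit alone in 13 cells and Kit with Il7r in 8. Kit with Flt3, Flt3 with Il7r, and Il7r alone were found in 2 cells each. No day-21 cell lacked all 4, and c-kit and CD127 proteins were part of the gate. Among Kit, Il7r and Flt3, Flt3, the one outside the gate, was positive in the fewest cells, 33 against 52 for Kit and 41 for Il7r.

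**Figure D2:**
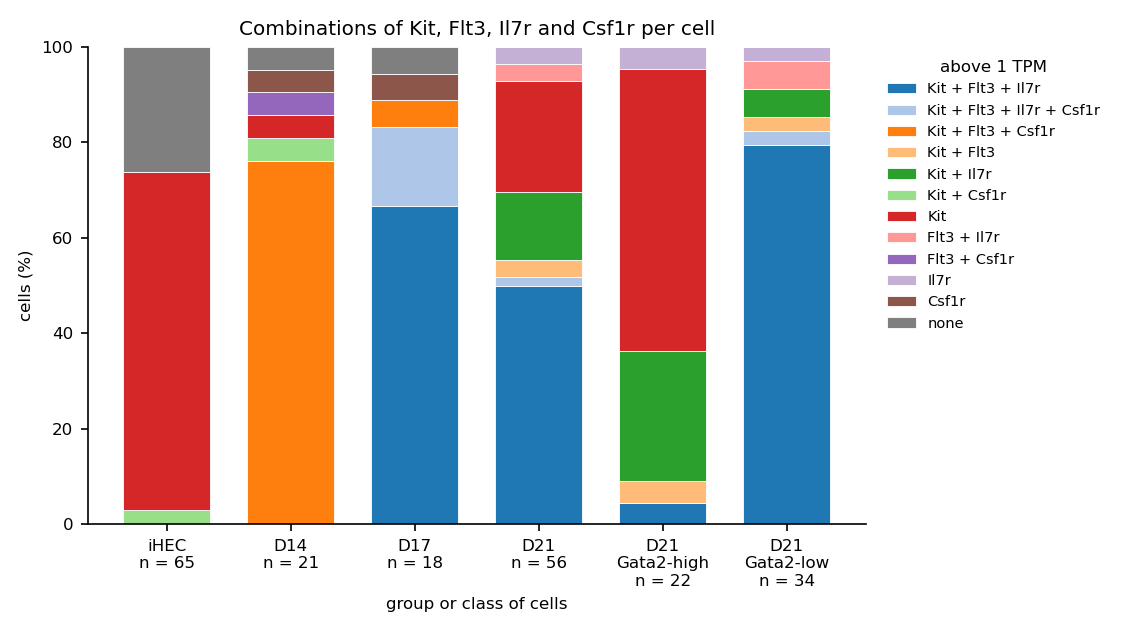
Share of cells, in percent on the vertical axis, with each combination of Kit, Flt3, Il7r and Csf1r above 1 TPM, for the 4 groups and for the day-21 cells by Gata2 class on the horizontal axis, with n the number of cells. Kit alone leads in iHEC (70.8%), Kit with Flt3 and Csf1r at day 14 (76.2%), and Kit with Flt3 and Il7r at day 17 (66.7%) and in the Gata2-low cells of day 21 (79.4%).

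Il7r and Csf1r were found in the same cell in 3 of 18 day-17 cells and in 1 of 56 day-21 cells. Day-17 cells 3, 7 and 16 were positive for all 4 receptors, with Il7r at 19.2, 47.4 and 22.9 TPM beside Csf1r at 17.05, 12.96 and 5.05 TPM. Cell 1, with Csf1r at 191 TPM, had Kit at 4.40 and Flt3 at 4.65 TPM and Il7r at 0. Cell 18, with Csf1r at 343 TPM, had Kit and Il7r at 0 and Flt3 at 0.372 TPM. The 2 cells with the most Csf1r were thus those without Il7r, whereas the 3 with less Csf1r held it.

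Csf2ra in these cells was at 233 and 118 TPM in cells 1 and 18, and at 11.2, 36.7 and 0 TPM in cells 3, 7 and 16. Csf2rb above 1 TPM was found in 6 of the 15 Il7r-positive cells of day 17, with a highest value of 55.98 TPM in cell 6. Cell 9, with Ptprc at 0.275 TPM, had Kit, Flt3 and Il7r each below 1 TPM and Il2rg at 1.43 TPM, although 8659 genes were detected in it. Leaving out cells 1, 9 and 18 leaves only the Il7r-positive cells of day 17. Among these, Kit, Flt3 and Il7r were positive together in 15 of 15 cells, with medians of 37.9, 73.5 and 47.4 TPM.

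At day 14, without cells 4 and 17, Csf1r and Csf2rb were positive in 19 of 19 cells, with lowest values of 7.55 and 23.2 TPM, Flt3 and Csf2ra in 17 each and Kit in 17. Csf1r and Csf2rb varied together over the 21 day-14 cells, with a Spearman rho of 0.85. These cells include the pair without Ptprc and 4 near-identical pairs, so the points are not independent. Cell 15, with 3103 genes detected, had Kit at 29.02 and Csf1r at 77.5 TPM but Flt3 and Csf2ra at 0. Cell 4 had Epor at 11.5 TPM, the higher of the 2 positive values of that day.

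**Figure D3:**
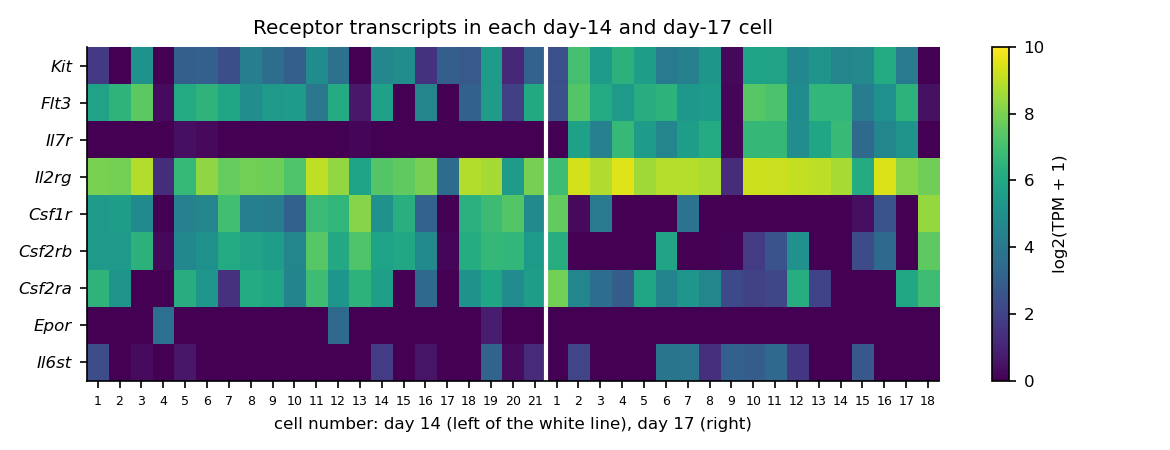
Level of each receptor (rows) in each of the 21 day-14 and 18 day-17 cells (columns, by cell number), coloured by log2(TPM + 1). Il7r is dark in all day-14 cells, Csf1r is dark in 13 day-17 cells, and day-17 cells 1, 9 and 18 and day-14 cells 4 and 17 stand out from their neighbours.

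Receptors that work as pairs of chains were next scored for both chains in the same cell. The IL-7 receptor pair of Il7r and Il2rg was found in 0 of 65 iHEC (up to 4.62%), 0 of 21 day-14 cells (up to 14.3%), 15 of 18 day-17 cells and 41 of 56 day-21 cells. Every cell with Il7r also held Il2rg, so Il7r alone set this count. The pair of Csf2ra and Csf2rb was found in 26 of 65 iHEC (40%, 28.04 to 52.9%), 17 of 21 day-14 cells (81.0%, 58.1 to 94.6%), 6 of 18 day-17 cells (33.3%, 13.3 to 59.01%) and 14 of 56 day-21 cells (25%, 14.4 to 38.4%). In iHEC the binding chain was the scarcer of the pair, at 29 positive cells against 56 for Csf2rb, whereas at day 17 it was Csf2rb, at 8 against 15.

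The IL-3 receptor pair of Il3ra and Csf2rb was found in 19 of 65, 13 of 21, 2 of 18 and 14 of 56 cells in the same order of groups. Il3ra encodes the binding chain for IL-3, which was present in the medium. The IL-6 receptor pair of Il6ra and Il6st was found in 1 of 65 iHEC, 4 of 21 day-14 cells, 3 of 18 day-17 cells and 0 of 56 day-21 cells (up to 5.36%). The share of iHEC with both Csf2ra and Csf2rb was 61.3% among the 31 iHEC with 5000 or more genes detected and 21.5% when positive meant above 10 TPM.

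The day-21 cells were then split by Gata2, a transcription factor of stem, mast and megakaryocyte cells, at 31 TPM. This gave 22 Gata2-high and 34 Gata2-low cells with no value near the limit, since the closest were 9.18 TPM below and 66.0 TPM above it. The classes had similar numbers of genes detected, with medians of 6665.5 and 6769.5. They were defined within 1 group by a measured transcript, so their values are a description. The classes differed in the levels of markers of other cell types. Of 9 mast cell markers, 7 were detected in Gata2-high and 6 in Gata2-low cells, with sums of 1560 to 100228 TPM and 83.8 to 4654 TPM. Among them Cpa3 was positive in 22 of 22 and 34 of 34 cells, and Tpsb2 and Tpsab1 were at 0 in both classes. Of 7 T lymphoid markers, 4 were detected in Gata2-high and 7 in Gata2-low cells, with sums of 0 to 802 TPM and 68.5 to 4038 TPM. Of 10 neutrophil and monocyte markers, 3 were detected in Gata2-high and 5 in Gata2-low cells, with median sums of 1655 and 39.3 TPM. Among them Ctsg was positive in 21 of 22 and 19 of 34 cells. Their part in the receptor differences was not tested.

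Csf2rb differed most among the members. It ran from 12.6 to 248 TPM with a median of 144 in Gata2-high cells, all 22 of them positive, and from 0 to 17.01 TPM with a median of 0 in Gata2-low cells, of which 6 of 34 were positive. Only 1 Gata2-high cell, cell 27, lay within the range of the other class, and the other 21 lay above all Gata2-low cells. The levels were 6.85 ± 1.04 and 0.78 ± 1.39, a difference of 6.07 that was larger than in 99.8% of kept genes. The neighbouring copy Csf2rb2 differed in the same direction, at 3.61 ± 1.80 against 0.03 ± 0.11, with 20 of 22 and 0 of 34 cells positive.

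Flt3 had the opposite pattern. It was positive in 2 of 22 Gata2-high cells, cell 1 at 5.87 TPM and cell 27 at 15.1 TPM, and in 31 of 34 Gata2-low cells, which had a median of 44.6 TPM and a highest value of 182 TPM. The levels were 0.36 ± 1.014 and 5.03 ± 1.85, a difference of -4.67, and 29 of the 34 Gata2-low cells lay above all Gata2-high cells. Cell 27, with the lowest Csf2rb of its class and the highest Flt3, also had the fewest genes detected, 3932.

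Il7r differed in the same direction as Flt3 but less sharply. It was positive in 8 of 22 Gata2-high cells (36.4%, 17.2 to 59.3%) with a median of 0.090 TPM, and in 33 of 34 Gata2-low cells (97.1%, 84.7 to 99.9%) with a median of 50.2 TPM. The difference of levels was -3.76, from 5.39 ± 1.47 in Gata2-low to 1.63 ± 2.22 in Gata2-high cells. The 8 Gata2-high cells with Il7r had between 5.46 and 56.3 TPM, all within the range of the other class. Their Csf2rb, at a median of 134 TPM, was near the 144 TPM of the 14 Gata2-high cells without Il7r, and 1 of the 8 also held Flt3.

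Kit was positive in most cells of both classes, 21 of 22 and 31 of 34, and higher in Gata2-high cells, with medians of 137 and 34.3 TPM and levels of 6.48 ± 1.96 and 4.75 ± 1.73. The difference was 1.73, and 11 Gata2-high cells lay above all Gata2-low cells. Il2rg had medians of 1081 and 561 TPM, with a difference of 0.69 that was under 2-fold. Csf2ra was positive in 11 of 22 and 18 of 34 cells, with a difference of -0.28. Csf1r, Epor and Il6st were positive in at most 2 cells of either class.

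In all, 2 of 9 members were 2-fold or more higher in Gata2-high cells, Csf2rb and Kit, and 2 were lower, Flt3 and Il7r, against 13% of kept genes higher and 10.2% lower. The members and the Gata2 split were chosen with earlier results of these data known, so no excess over all genes is read from these shares. The median kept gene did not differ (0.0). The counts were the same without cell 49, a Gata2-high cell with Ptprc at 0. With the Gata2 limit lowered to 1 TPM, Csf2rb was the only member left 2-fold higher.

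**Figure D4:**
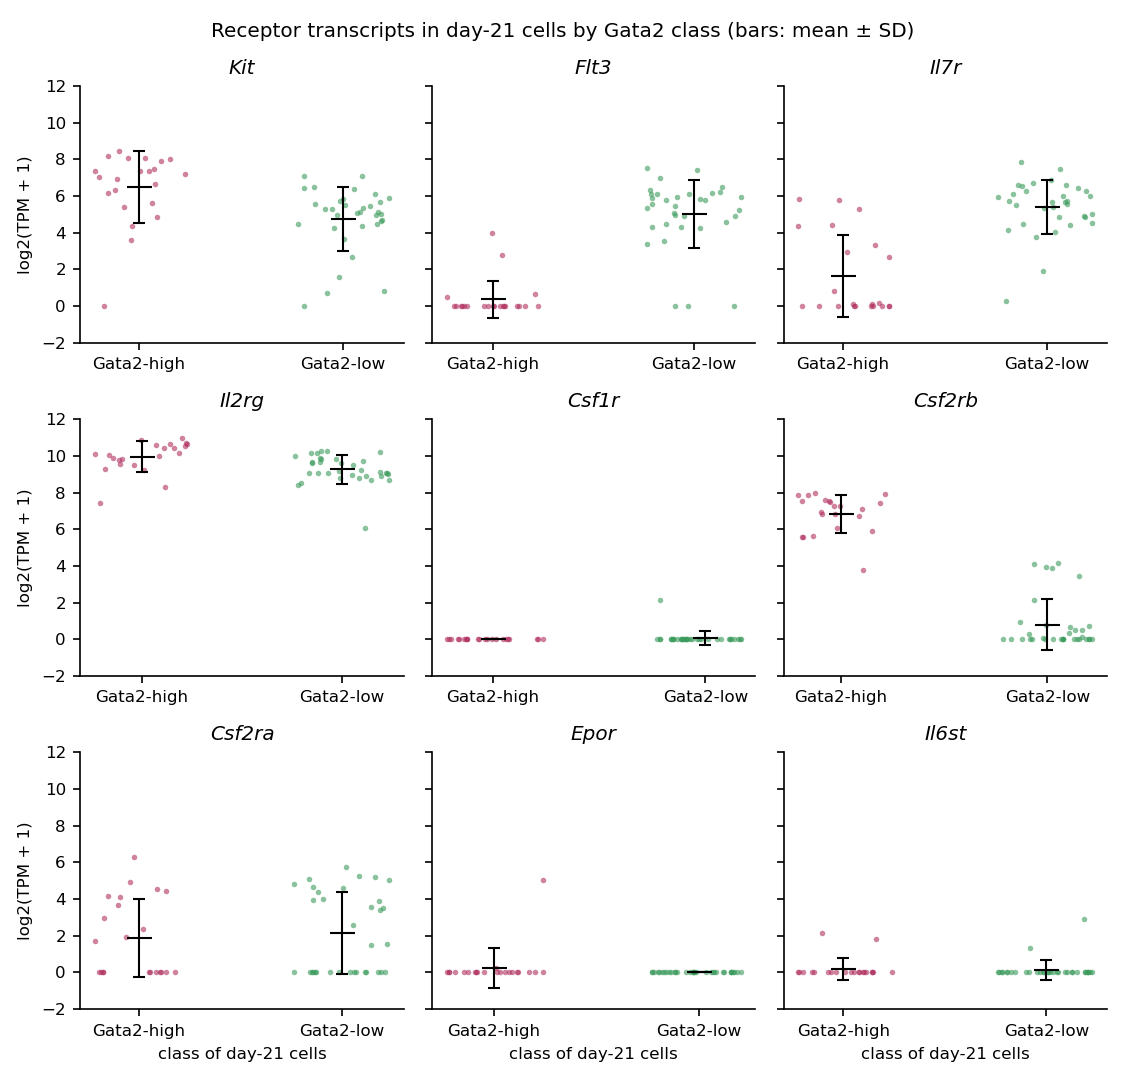
Levels of the 9 receptors in the 22 Gata2-high and 34 Gata2-low cells of day 21, as log2(TPM + 1) on the vertical axis, with black bars for the mean ± SD between cells. Csf2rb separates the classes except for 1 Gata2-high cell, Flt3 and Il7r are higher in Gata2-low cells, and Il2rg is high in both.

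The combinations of receptors divided along the same line. Kit, Flt3 and Il7r were positive together in 28 of 34 Gata2-low cells (82.4%, 65.5 to 93.2%) and in 1 of 22 Gata2-high cells (4.55%, 0.115 to 22.8%). Among Gata2-high cells 13 were positive for Kit alone of the 4 receptors and 6 for Kit with Il7r, combinations found in 0 and 2 Gata2-low cells. Flt3 and Csf2rb were positive together in 8 of 56 day-21 cells, 6 of them Gata2-low. In those 6 cells Csf2rb stayed between 3.35 and 17.01 TPM while Flt3 had a median of 66.8 TPM, against 41.1 TPM in the 28 Gata2-low cells without Csf2rb.

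For the chain pairs, Csf2ra with Csf2rb was found in 11 of 22 Gata2-high cells (50%, 28.2 to 71.8%) and 3 of 34 Gata2-low cells (8.82%, 1.86 to 23.7%), and Il3ra with Csf2rb in 12 and 2. Il7r with Il2rg was found in 8 and 33. Across the 56 cells Spearman's rho was 0.61 for Flt3 with Il7r, -0.59 for Flt3 with Csf2rb and -0.63 for Il7r with Csf2rb. Within the 34 Gata2-low cells the rho of the same pairs was 0.16, 0.22 and -0.10, and within the 22 Gata2-high cells 0.04, -0.08 and -0.18. Most of each relation over all cells thus lay between the classes. The cells are of 1 group and differ in genes detected, and these values are given as descriptions.

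**Figure D5:**
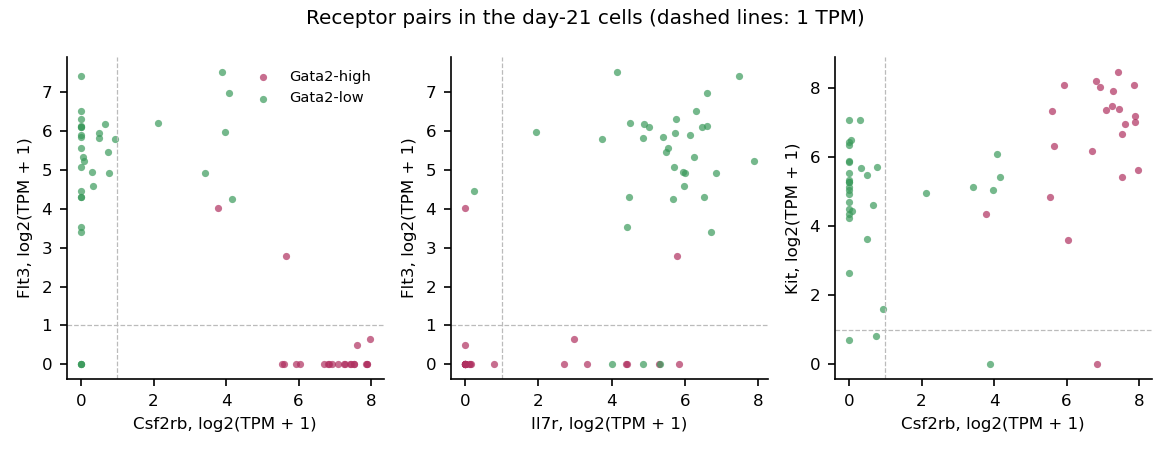
Levels of 3 pairs of receptors in the 56 day-21 cells, both axes in log2(TPM + 1), with Gata2-high cells in red, Gata2-low cells in green and dashed lines at 1 TPM. High Csf2rb and high Flt3 occupy different cells, with 8 cells above 1 TPM for both, whereas Kit is above 1 TPM on either side of the Csf2rb line.

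The wider pathway was described with 6 lists of genes around these receptors. Of 15 ligands, 1 passed the filter, Flt3l, the ligand of Flt3. It was positive in 26 of 65 iHEC, 4 of 21 cells at day 14, 9 of 18 at day 17 and 18 of 56 at day 21, and in 13 of 22 Gata2-high against 5 of 34 Gata2-low cells. Its level was thus higher in the class in which Flt3 itself was low, by 1.80. Ligands that failed the filter were not compared, so Flt3l need not be the only one that differed between the classes.

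Of 21 partner and related receptors, 10 passed the filter. From iHEC to day 14, 2 were higher (20%, against 48% of kept genes) and 2 lower (20%, against 11.5%). Il4ra (the IL-4 receptor alpha chain) was higher by 2.96 and Il11ra1 lower by -1.25. Pdgfrb, a receptor tyrosine kinase of the same class as Kit and Flt3, was higher by 1.60. From day 14 to day 17, Pdgfrb was higher by 3.36 and Il9r, which pairs with Il2rg, by 2.33, and Il4ra was lower by -2.07. From day 17 to day 21 none was higher and 4 were lower (40%, against 38.5% of kept genes), led by Pdgfrb at -1.89. Pdgfrb, known for stromal cells, was positive in 16 of 18 day-17 cells. Of 7 stromal markers 3 were detected at day 17, Col1a1 in 2 cells and Col1a2 and Cxcl12 in 1 each, with a median sum of 0 and a highest sum of 93.9 TPM, and Col3a1, Dcn, Lum and Postn were at 0; their part in the Pdgfrb values was not tested. Between the Gata2 classes 4 of the 10 kept receptors (40%, against 13%) were higher, including Csf2rb2, Crlf2 by 2.91 (the thymic stromal lymphopoietin receptor, which pairs with Il7r) and Il4ra by 2.01, and 1 was lower (10%, against 10.2%).

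All 11 JAK and STAT genes passed the filter. From iHEC to day 14, 5 (45.5%, against 48% of kept genes) were higher and 2 lower (18.2%, against 11.5%), Jak1 at -1.97 and Stat4 at -1.85. From day 14 to day 17, 9 of 11 (81.8%, against 15.5%) were higher and none lower, among them Tyk2 at 2.102 and Stat5a at 2.096, with a median of 1.34 against 0.28 over all kept genes. From day 17 to day 21, 7 of 11 (63.6%, against 38.5%) were lower and none higher, led by Stat6 at -2.48, with a median of -1.44 against -0.74. Between the Gata2 classes 2 were higher (18.2%, against 13%) and 2 lower (18.2%, against 10.2%): Stat3 was lower in Gata2-high cells by -2.03 and Stat6 higher by 1.45. Most of the list was thus higher at day 17 than at either neighbouring day.

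Negative regulators, which end receptor signals, numbered 14, all kept. From iHEC to day 14, 9 (64.3%, against 48% of kept genes) were higher and none lower, led by Dok2 at 4.92 and Ptpn6, a phosphatase that acts on Kit and on JAK-coupled receptors, at 4.21. From day 14 to day 17, 5 (35.7%, against 15.5%) were higher, with Sh2b3 (Lnk) at 1.96, and from day 17 to day 21, 4 (28.6%, against 38.5%) were lower, with Sh2b3 at -2.67. Between the Gata2 classes 6 (42.9%, against 13%) were higher and 2 lower (14.3%, against 10.2%). Spred1 was higher by 3.76, Cish by 3.06, and Socs1 by 1.61, the latter 2 being inhibitors that STAT proteins are known to induce.

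Of 14 adaptors and kinases, 13 were kept. From iHEC to day 14, 8 (61.5%, against 48% of kept genes) were higher and none lower, led by Btk at 5.73, which was positive in 1 of 65 iHEC and 19 of 21 day-14 cells. From day 14 to day 17, 3 (23.1%, against 15.5%) were higher, among them Plcg1 at 1.85, and 1 (7.69%, against 3.89%) lower, Gab1 at -2.26. From day 17 to day 21, 4 (30.8%, against 38.5%) were lower, with Shc1 at -2.13. In Gata2-high cells 7 of 13 (53.8%, against 13%) were higher and none lower, among them Pik3cd at 2.28 and Btk at 2.198.

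Of 10 target genes of receptor signalling, 9 were kept. From iHEC to day 14, 4 (44.4%, against 48% of kept genes) were higher, including Ccnd2 (cyclin D2) at 3.58 and Myc at 3.52. From day 14 to day 17, 2 were higher (22.2%, against 15.5%) and 2 lower (22.2%, against 3.89%), with Pim2, a survival kinase, lower by -3.93. From day 17 to day 21, 4 (44.4%, against 38.5%) were lower, led by Pim3 at -2.98. In Gata2-high cells Pim2 was higher by 2.34 and Bcl2l1, a survival gene, by 1.97, and Myc was lower by -2.30.

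Genes whose pattern was most like a member's over the day-21 cells were sought among 9277 genes positive in more than 10 of them. For Kit they were Lyn, an intracellular kinase, with a Spearman rho of 0.67, Uap1l1 at 0.66, C3ar1 at 0.66 and Dusp3 at 0.64. C3ar1, the receptor for complement fragment C3a, was positive in 14 of 22 Gata2-high and 0 of 34 Gata2-low cells. For Flt3 they were Ldhb at 0.75, Cd27 at 0.74, Timp2 at 0.72 and Ramp1 at 0.72. For Il7r they were Gata3, a transcription factor of T cells and innate lymphoid cells, at 0.72, Spint2 at 0.71, Tsc22d1 at 0.67 and Lck, a T cell kinase, at 0.66. Gata3 was positive in 3 Gata2-high and 32 Gata2-low cells, and Cd27 in 5 and 33. Csf1r, with 1 positive cell, was below the limit for this search. With Pearson's r in place of rho, 1 of the 4 genes was kept among the top 4 for Kit, 2 for Flt3 and none for Il7r, so the order of these names was not stable.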

How the data were processed

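Single cells were amplified with the Discover-sc WTA Kit V2, checked by qPCR for B2m and Gapdh, and sequenced from TruePrep libraries. The authors aligned reads to mm10 with HISAT2 (version 2.1.0) and deposited TPM values per gene and cell from StringTie (version 1.3.4); SAMtools 0.1.19 is also named in the submitters' processing notes. No read counts or depths were used here, so read depth is unknown.

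TPM was read as deposited, and a pseudocount of 1 was added before log2. Means, SDs, shares and Spearman correlations were computed with Python 3.11.15, numpy 2.4.6, pandas 2.3.3 and scipy 1.17.1, and the steps were tested on simulated data. All 150 genes of the 6 pathway and 9 marker lists were matched, 2 by synonym. From each pathway list, counts and up to 3 genes with the largest absolute difference in each comparison are named, together with the 9 members, Gata2 and the 4 genes most like a member. Some genes that this rule would name are not reported here. Cells singled out by Ptprc, marker sums or correlation were chosen after their values were seen. The members and lists were chosen with earlier results of these data known.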

Additional observations from a re-analysis of the deposited data

How the results depend on the processing

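Member counts past 2-fold moved by more than 1.5 times as follows. With a pseudocount of 10, the count lower from iHEC to day 14 was 0 instead of 3, higher from day 14 to day 17 was 1 instead of 2, and from day 17 to day 21 was 1 instead of 2 higher and 1 instead of 4 lower. A larger pseudocount shrinks differences between low values by construction. With a pseudocount of 0.1 the count higher from day 14 to day 17 was 4. Among alternatives chosen after seeing the data, leaving out the 2 marker-rich day-17 cells made it 5, leaving out cells lacking Ptprc made the count higher from day 17 to day 21 1, and taking differences relative to the median gene made the count lower there 1. With Gata2 above 1 TPM as the limit, 1 member was higher. The share of iHEC with Csf2ra and Csf2rb was 21.5% above 10 TPM and 61.3% in cells with 5000 or more genes, where a changed threshold or set of cells is the construction. Of 99 alternative values for these counts and shares, 88 were unmoved, and of 306 alternative differences of single members 291 moved by less than the SD between cells. No difference of 2-fold or more changed sign, but 5 smaller ones did: from iHEC to day 14, Csf2rb (-0.13) was 0.03 with a pseudocount of 0.1 and 0.41 without cells lacking Ptprc, and relative to the median gene Il7r was -0.89 and Il2rg -0.36 there and Il7r 0.06 from day 17 to day 21. Over all rows without the filter, the shares of genes past 2-fold were lower than over kept genes in all 8 counts. No paired analysis was possible because the results come from no test and a replicate number only names a cell. Unknown depth limits every negative call.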

Other observations

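Csf1r was found in 2 of 65 iHEC, cell 2 at 60.1 TPM and cell 38 at 33.4 TPM, and these had 7447 and 7533 genes detected, the latter the most of any iHEC. Both held Csf2rb, at 176 and 51.5 TPM, and Kit, at 1.67 and 75.6 TPM. Among iHEC, Kit had a median of 50.7 TPM in the 24 cells with Il6st and 23.7 TPM in the 41 without, and the median number of genes detected was 5567.5 and 4735. The part of that number in the difference was not tested.

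At day 17, Kit and Il2rg had a Spearman rho of 0.77, and Flt3 and Il7r one of 0.72, over 18 cells that include cells 1, 9 and 18. In the Gata2-high cells, Il2rg had a median of 1487 TPM in the 8 cells with Il7r and 1049 TPM in the 14 without. Day-21 cell 25, the only one of that day with Csf1r, at 3.47 TPM, was positive for Kit, Flt3, Il7r, Csf2rb and Csf2ra as well, 7 members of 9 with Il2rg.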
